A study of Mus musculus with 10 samples.

Results

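The genes described here encode the constitutive proteasome, the protease of every cell that degrades proteins marked with ubiquitin. They were taken by symbol, as all genes of both deposited tables named Psma to Psmg plus a number, leaving out the interferon-inducible Psmb8, Psmb9, Psmb10, Psme1 and Psme2. This gave 43 genes of the 46786 in the 3-month table and the 46977 in the 12-month table. RNA-seq was made from dissected mouse hearts labelled knockout or control for Prdm16, a zinc-finger transcriptional regulator, at 3 months (3 knockout and 3 control libraries) and at 12 months (2 knockout and 2 control libraries). The labels give no strain, sex, knockout construct or Cre driver and do not state whether each library is a different mouse. The p-values therefore cover library-to-library spread, which may be technical. Whole hearts hold many cell types, and in such bulk RNA fewer cells of a type and less RNA per cell cannot be told apart.

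The proteasome has a barrel-shaped 20S core of alpha and beta rings, closed at the ends by alpha subunits and lined by proteolytic beta subunits, and a 19S regulatory particle whose ATPases unfold substrates and whose non-ATPase subunits bind and remove ubiquitin. Dedicated chaperones assemble both. When proteasome activity is low, the transcription factor NFE2L1 binds antioxidant response elements in proteasome gene promoters and raises their transcription, and in heart muscle the proteasome turns over sarcomere proteins and damaged proteins. By role the 43 genes comprised 8 alpha subunits, 8 beta subunits, 6 ATPases, 11 non-ATPase subunits, 7 assembly chaperones and 3 genes of activators or inhibitors.

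The core letters of the antioxidant response element, TGACNNNGC on either strand, were searched in the promoter windows of RefSeq (GRCm38.p6, 250 bases before to 50 after the start), which held a window for 35 of the 43 genes. They occurred in 6 of the 35 genes (17.1%), against 14.0% of all 27025 genes with a window and 12.4% of all 32851 windows. The stretches below, with the motif letters in capitals and each sequence given 5′ to 3′ on the strand of its gene, are shown because the NFE2L1 genes are among the related genes described further on. They come from 5 of those 6 genes, and Psme4 was the other.
Psmb5, chr14:54618009-54618067, minus strand: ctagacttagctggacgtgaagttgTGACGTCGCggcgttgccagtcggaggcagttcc
Psmb6, chr11:70525323-70525356, plus strand: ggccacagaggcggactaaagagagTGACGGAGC
Psmc6, chr14:45329574-45329630, plus strand, motif on the opposite strand: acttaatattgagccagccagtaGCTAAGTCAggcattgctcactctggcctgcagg
Psmd12, chr11:107479278-107479314, plus strand, motif on the opposite strand: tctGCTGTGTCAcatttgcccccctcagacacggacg
Psmd9, chr5:123228134-123228189, plus strand: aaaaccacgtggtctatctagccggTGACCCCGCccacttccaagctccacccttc
Relative to the start, the motif lay at −47 to −39 in Psmb5, −9 to −1 in Psmb6 and −31 to −23 in Psmd9, close to the start in all 3. It lay at −227 to −219 in Psmc6 and −247 to −239 in Psmd12, at the far end of the window. The other letters searched were CCAAT, found in 13 of 35 genes (37.1%, against 41.1% of all genes and 37.4% of windows), and TATAAA, found in 3 of 35 (8.57%, against 15.7% of all genes and 13.6% of windows), both on either strand. The alpha genes Psma1, Psma2, Psma3, Psma6 and Psma7 held CCAAT, and Psmb4, Psmd1 and Psmd6 held TATAAA. These matches describe the letters and are not measured binding sites.

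The tables hold FPKM, in which fragments are divided by transcript length and by the mapped fragments of a library, which sets levels of different genes on 1 scale within a library. Whole-read steps in the 12-month values put depth at 26.2 and 21.6 M reads in knockout-labelled hearts and 29.6 and 31.4 M in controls. The 3-month values showed no clear steps of this kind, and their depth is unknown. Prdm16 itself was at 1.43, 0.760 and 2.03 FPKM in the 3-month knockout-labelled libraries, against 1.44, 2.23 and 1.61 FPKM in controls, so its level did not separate the labels at that age. At 12 months it was at 4.02 and 3.58 FPKM under the knockout label, against 6.31 and 5.05 FPKM under the control label (log2 difference −0.47, SE 0.15, limma with Benjamini-Hochberg adjusted p = 0.340). A gene-level value cannot show the loss of single exons, and genotypes are given throughout as labelled. At 12 months sex-linked genes divided as the labels did. Xist, transcribed from the inactive X, was at 0.0911 and 0.0240 FPKM in knockout-labelled libraries, against 33.1 and 31.0 FPKM in controls, and the Y-linked Ddx3y was at 24.5 and 20.7 FPKM, against 0.0352 and 0.0114 FPKM. Genotype and sex therefore cannot be told apart at 12 months.

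Of the 43 genes, 41 were expressed in these hearts and 2 were not. Psmb11, the beta subunit known from the thymus, was listed at 0 in all 10 libraries. Psma8, the alpha subunit known from the testis, stayed at 0.0743 to 0.448 FPKM at 3 months and 0.195 to 0.684 FPKM at 12 months. Both missed the minimum mean of 1 FPKM set for testing, and the name constitutive does not hold for them here.

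Levels of the other 41 genes differed widely within the complex, although its core subunits are present in equal numbers. Psmb6, which carries the caspase-like site, led at 3 months with 208, 264 and 186 FPKM in knockout-labelled libraries and 185, 161 and 156 FPKM in controls. It was followed by Psmb4, a structural beta subunit (mean over the 6 libraries 149.8 FPKM), Psmb5, which carries the chymotrypsin-like site and is the target of bortezomib (125 FPKM), and Psmb7, which carries the trypsin-like site (119 FPKM). Beta subunits thus held the first 4 places at that age. Among alpha subunits Psma3 and Psma5 stood far below the rest, at means of 12.3 and 16.6 FPKM, while the other 5 lay between 63.5 and 92.6 FPKM. ATPases lay between 38.1 FPKM for Psmc6 and 87.5 FPKM for Psmc3, and non-ATPase subunits between 18.8 FPKM for Psmd11 and 57.3 FPKM for Psmd8. The assembly chaperones, which are needed in smaller amounts, ranged from 5.79 FPKM for Psmd5, the lowest of the 41, to 27.0 FPKM for Psmg4. Psmf1, the gene of the inhibitor PI31, was next to last at 6.54 FPKM. Pseudogenes of Psmb5, Psmb6 and Psmb7 are annotated and could share reads with them, and the highest value of any of these was 4.11 FPKM, for Psmb6-ps2.

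**Figure D1:**
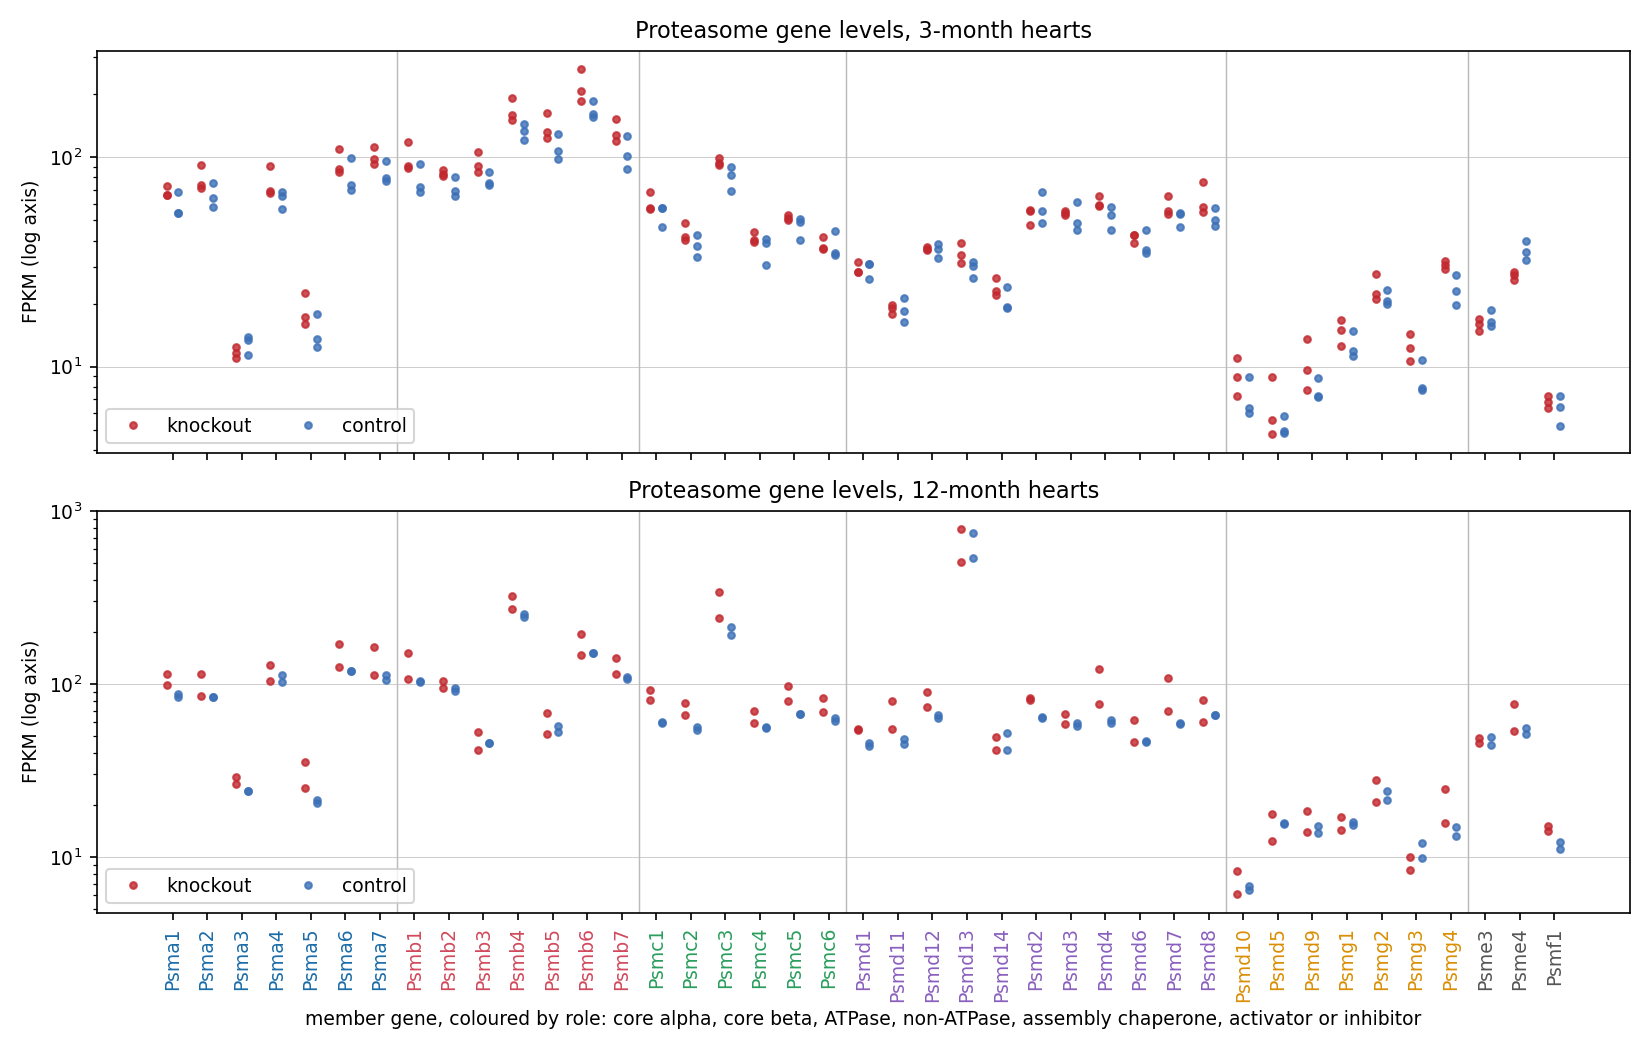
Level of each of the 41 expressed genes in every library, in FPKM on a log axis, with knockout-labelled libraries in red left of controls in blue and genes grouped by role; the upper panel shows 3 months and the lower panel 12 months. Psmb6 led at 3 months with 186 to 264 FPKM in knockout-labelled libraries and 156 to 185 FPKM in controls, and Psmd13 stood above the rest at 12 months. The assembly chaperones lay low at both ages, with Psmf1 among them, and at 3 months also Psma3, Psma5 and Psme3.

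The order of levels was broadly shared by the 2 tables, with some large exceptions. Over the 41 genes the control means of the ages had a Spearman rank correlation of 0.81, a description across genes that share the same libraries. The 12-month values were the higher for 36 genes, with a median ratio of 1.43, but the tables were normalised separately and differ in library preparation, so levels are not compared as ages. Psmc3, an ATPase, was at rank 7 of the 43 genes at 3 months and rank 3 at 12 months. Psmb5 was at rank 3 at 3 months and rank 25 at 12 months, and Psmb3 was at ranks 9 and 30.

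Psmd13, a lid subunit, was the largest exception. It was at 26.4 to 38.8 FPKM in the 3-month libraries, rank 26, and led all members at 12 months with 510 and 789 FPKM in knockout-labelled libraries and 751 and 534 FPKM in controls. The groups overlapped widely and the log2 difference was 0.00 (SE 0.30). Psmd13 lies on the plus strand of chromosome 7 (140881968 to 140898643, GRCm38), and 302 bases after its end starts Cox8b, on the opposite strand, a respiratory chain gene at 1454 to 2808 FPKM in the 3-month libraries and 1541 to 2216 FPKM in the 12-month libraries. Psmd13 itself overlaps Sirt3, on the minus strand, and the processed pseudogene Gm15542, on the plus strand. Whether reads of Cox8b, Sirt3 or Gm15542 entered the Psmd13 value was not tested, and sums over members are given without Psmd13 at 12 months.

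At 3 months most proteasome genes were somewhat higher in knockout-labelled hearts, and none passed the test. Of the 41 genes 36 had a positive difference, with a median of 0.22 on the log2(FPKM + 1) scale and a range of −0.37 to 0.45. Over all 12200 tested genes 65.0% were higher, with a median of 0.09. Scaled to TPM (FPKM set to the same sum in every library) or by median ratios, 31 of the 41 were higher, against 50.3% and 50.1% of all genes, with medians of 0.12 for both scalings. No member was called at an adjusted p under 0.05 by limma with Benjamini-Hochberg adjustment, against 0.746% of all genes. At an unadjusted p under 0.05 there were 5 members (Psmb4, Psmb6, Psmg3, Psmg4 and Psme4), against 18.2% of all genes, a share of members below that of all genes. In 7 members every knockout-labelled library lay above every control, against 20.1% of all genes, and in 1 every knockout-labelled library lay below, against 4.60%. After scaling to TPM 3 members did not overlap in this direction, against 9.01% of all genes, and after median-ratio scaling 0 did, against 12.5%.

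The beta subunits, which hold the proteolytic sites, had the highest median of the 20S and 19S groups at 3 months, 0.32, and all 7 were higher under the knockout label under each scaling. Psmb6 (chromosome 11, 70525367 to 70527858, plus strand) had the values given above, and its lowest knockout-labelled library was just over its highest control. Its log2 difference was 0.38 (SE 0.16, adjusted p = 0.260). Psmb4 was at 151, 191 and 159 FPKM in knockout-labelled libraries, against 144, 134 and 121 FPKM in controls. Its groups did not overlap, and its difference was 0.32. Psmb2 and Psmb3 also did not overlap, while Psmb1, Psmb5 and Psmb7 did, with differences of 0.22 to 0.35 over these 5.

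Among the alpha subunits 6 of 7 were higher at 3 months, with a median difference of 0.24, and in each the groups overlapped. Psma5 was at 17.3, 22.5 and 16.0 FPKM in knockout-labelled libraries, against 17.8, 13.5 and 12.5 FPKM in controls. Knockout-labelled replicate 2 was highest and control replicate 1 lay above the other 2 knockout-labelled libraries, for a difference of 0.33 (SE 0.17, adjusted p = 0.342). Psma3 was the exception, at 12.4, 11.7 and 11.02 FPKM against 13.8, 11.3 and 13.4 FPKM in controls, with a difference of −0.12 (SE 0.12, adjusted p = 0.622).

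The 19S genes had smaller differences at 3 months. All 6 ATPases were higher, with a median of 0.17, and 5 of 6 after either rescaling. Psmc3 was at 92.2, 98.6 and 93.7 FPKM in knockout-labelled libraries, against 90.2, 81.9 and 68.7 FPKM in controls. It was the only ATPase whose groups did not overlap, with a difference of 0.25 (SE 0.13, adjusted p = 0.362). Of the 11 non-ATPase subunits 9 were higher as deposited and 5 after either rescaling, and their median of 0.10 was close to the 0.09 of all genes. Psmd8, a lid subunit, was at 58.0, 76.4 and 55.0 FPKM, against 57.4, 50.2 and 46.7 FPKM in controls, with a difference of 0.28 (SE 0.16, adjusted p = 0.370). Psmd2, the scaffold that receives ubiquitin shuttle proteins, was at 55.4, 47.6 and 55.9 FPKM, against 55.1, 68.4 and 48.7 FPKM in controls. Its difference was −0.10 (SE 0.15, adjusted p = 0.751), and it came to 0.03 without control replicate 2. Psmd4, a ubiquitin receptor, was the only non-ATPase gene without overlap, with a difference of 0.23.

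All 7 assembly chaperones were higher under the knockout label at 3 months under each scaling, with a median of 0.32. Psmg3, which acts with Psmg4 in assembling the alpha ring, was at 12.2, 14.3 and 10.6 FPKM in knockout-labelled libraries, against 10.7, 7.77 and 7.89 FPKM in controls. The groups overlapped narrowly, and its difference of 0.45 was the largest of all members (SE 0.16, adjusted p = 0.197). Psmg4 was at 30.7, 32.0 and 29.2 FPKM, against 27.5, 19.7 and 23.0 FPKM in controls, without overlap, for a difference of 0.39 (SE 0.14, adjusted p = 0.209). The other 5 chaperones had overlapping groups. Psmd5 rested on 1 library, at 8.94, 5.56 and 4.75 FPKM in knockout-labelled libraries, against 4.796, 5.79 and 4.91 FPKM in controls.

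Psme4, the gene of the nuclear activator PA200, was lower under the knockout label at 3 months and had the lowest p of all members. It was at 27.5, 26.0 and 28.3 FPKM in knockout-labelled libraries, against 35.2, 39.8 and 32.1 FPKM in controls. Every knockout-labelled library lay below every control, with a difference of −0.37 (SE 0.12, adjusted p = 0.188). Psme4 (chromosome 11, 30771726 to 30880361, plus strand) had the longest transcript of the 41 members, 6491 bases. Psme3, the gene of another nuclear activator, had a difference of −0.08, and Psmf1 one of 0.11.

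**Figure D2:**
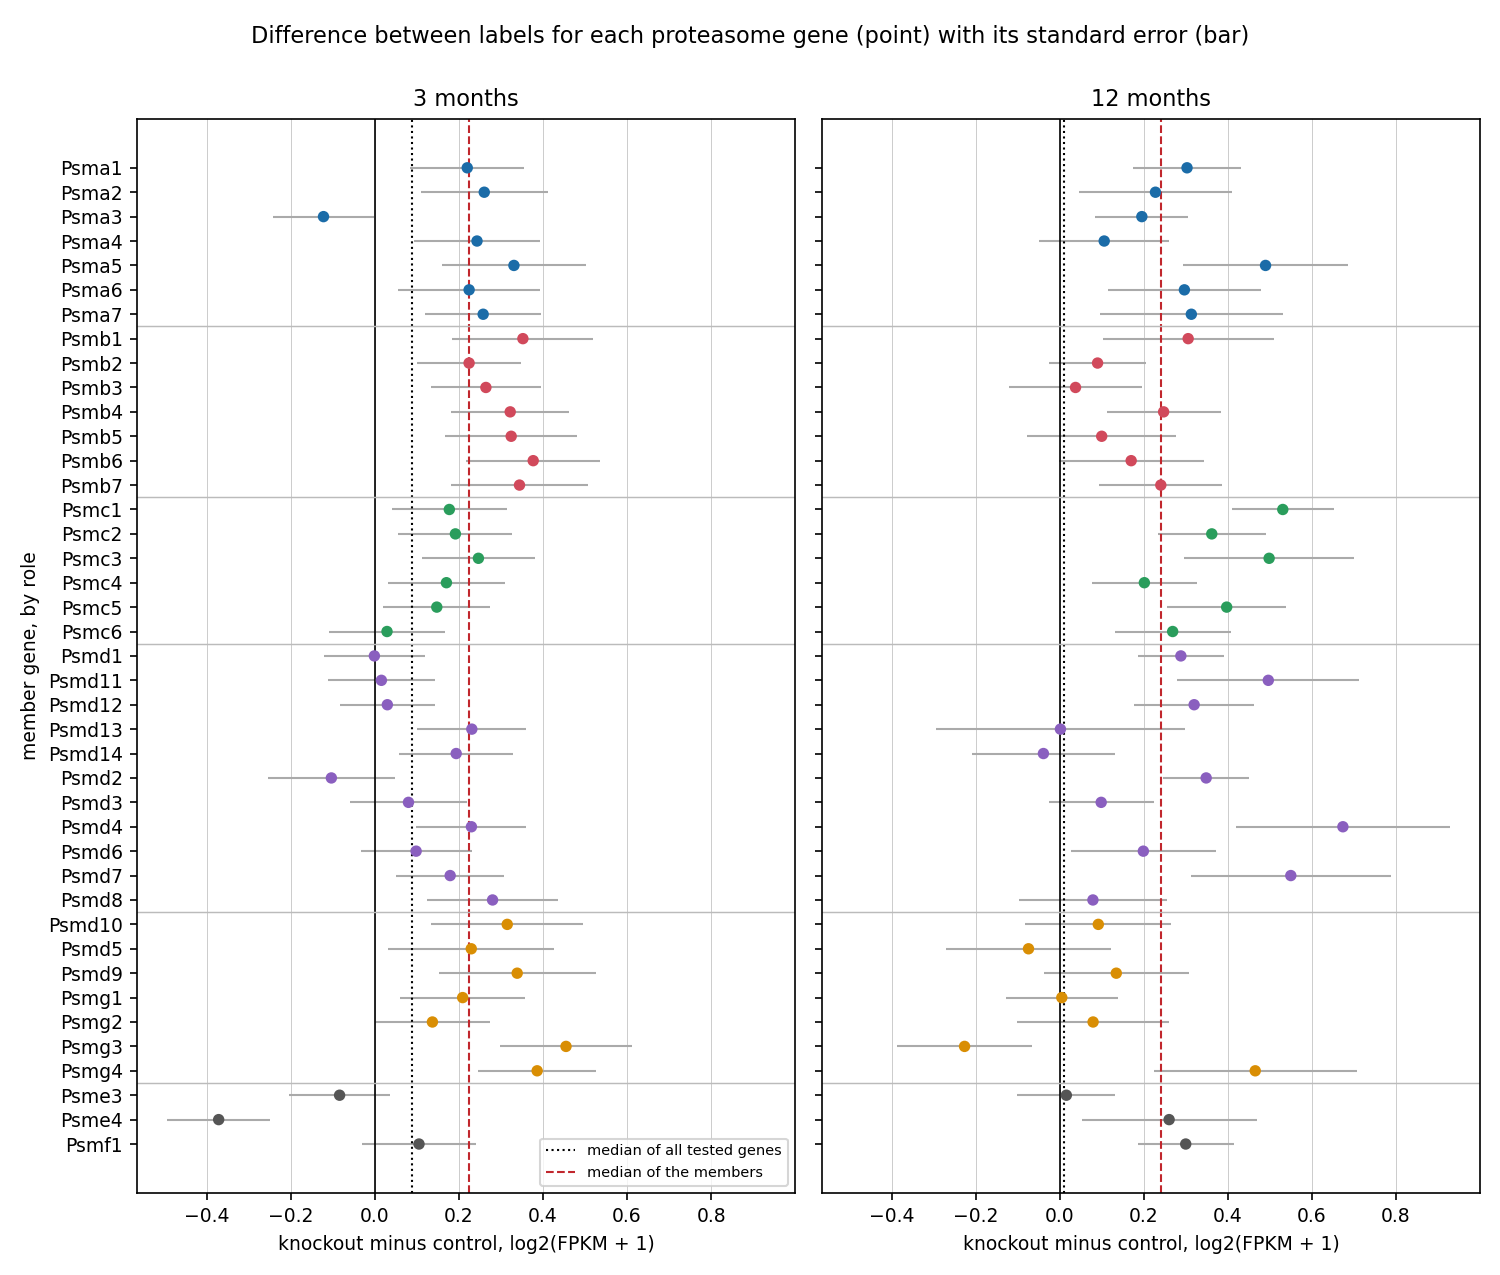
Difference between knockout-labelled and control libraries for each gene on the log2(FPKM + 1) scale (points, coloured by role) with its standard error (bars), at 3 months on the left and 12 months on the right. The dashed line marks the median of the members, 0.22 and 0.24, and the dotted line the median of all tested genes, 0.09 and 0.01; Psme4 lies lowest at 3 months and Psmd4 highest at 12 months.

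Relative to transcript length, the 3-month members lay where other genes of their length lay. At that age the differences of all genes followed length: over 12159 genes with an annotated coding transcript the Spearman rank correlation with length was −0.46, and the median difference ran from 0.34 in the shortest of 10 length bins to −0.06 in the longest. Among the 41 members the correlation was −0.58. Of the 41, 17 lay above the median of all genes in their own length bin, with a median offset of −0.05. The beta subunits lay 0.03 and the chaperones 0.09 above their bins, and the ATPases 0.05 and the alpha subunits 0.05 below. At 12 months the correlation was −0.16 over all genes and 0.11 over the members, and 33 of 41 members lay above the median of their bin, with a median offset of 0.18. Correlations are across genes of the same libraries and carry no test, and the part of length in the 3-month differences was not tested.

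**Figure D3:**
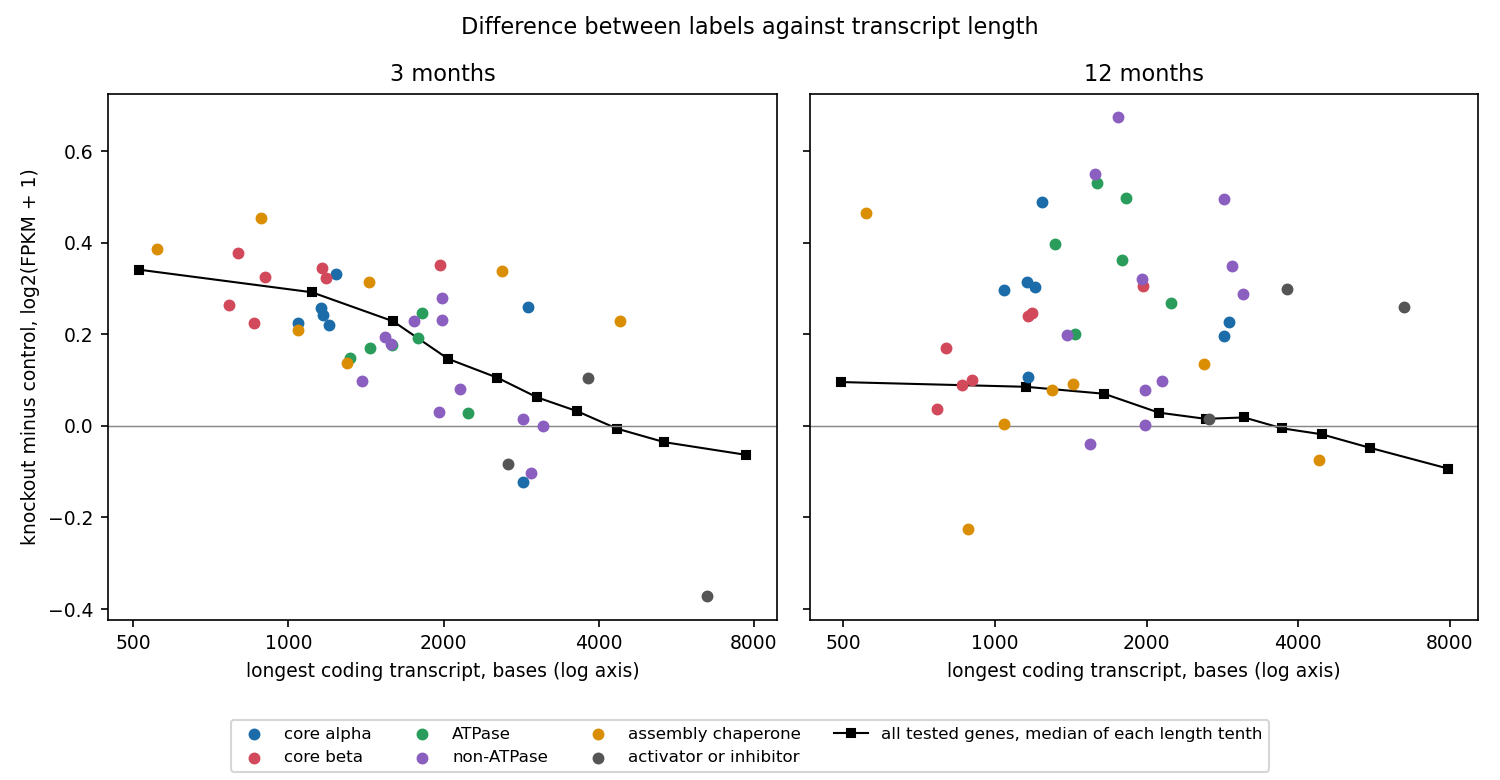
Difference between knockout-labelled and control libraries (log2(FPKM + 1), vertical) against the longest coding transcript in bases (log axis) for each member, coloured by role, with the median of all tested genes in each of 10 bins of length as black squares. At 3 months the members follow the black line, which runs from 0.34 to −0.06, and at 12 months most lie above it, 33 of 41 over the median of their own bin.

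At 12 months nearly all members were higher in knockout-labelled hearts on the deposited scale, with the highest median in the ATPases, and again none passed the test. Of the 41 genes 38 had a positive difference, with a median of 0.24 and a range of −0.23 to 0.67, while 51.5% of all 13179 genes were higher, with a median of 0.01. Without knockout-labelled replicate 2 the median was 0.090 and 27 of the 41 were higher, against 54.1% of all genes. Scaled to TPM, 10 of the 41 were higher, against 18.7% of all genes, and their median was −0.08, but the median of all genes moved to −0.27, since summed FPKM was 1070016 and 1171104 in knockout-labelled libraries and 890181 and 897425 in controls. Set against all genes, the members' median lay 0.23 higher as deposited and 0.19 higher after that scaling, and 36 and 34 of the 41 lay above the median of all genes. No member was called at an adjusted p under 0.05 by limma, against 0.395% of all genes, and 5 had an unadjusted p under 0.05 (Psmc1, Psmc2, Psmc5, Psmd1 and Psmd2), against 13.6%, a share of members close to that of all genes. In 22 of the 41 both knockout-labelled libraries lay above both controls, against 27.3% of all genes, and in none did both lie below, against 23.0%. On the TPM scale 2 members had both above, against 7.85% of all genes.

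The 6 ATPases had the highest median at 12 months, 0.38. In all 6 both knockout-labelled libraries lay above both controls on the deposited scale, against 27.3% of all genes. On the TPM scale this held for only 2 of all 41 members, against 7.85% of all genes. After scaling to TPM 4 of the 6 were higher and all 6 lay above the median of all genes. Psmc1 (chromosome 12, 100110154 to 100123405, plus strand), whose product helps to open the core gate, was at 81.2 and 92.8 FPKM in knockout-labelled libraries, against 60.2 and 59.4 FPKM in controls. Its difference was 0.53 (SE 0.12), and its adjusted p of 0.250 was the lowest of all members. Psmc3, the most abundant ATPase, was at 242 and 339 FPKM, against 213 and 193 FPKM in controls, for a difference of 0.50. Psmc5 and Psmc2 had differences of 0.40 and 0.36, Psmc6 one of 0.27 and Psmc4 one of 0.20.

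Of the 11 non-ATPase subunits 10 were higher at 12 months, with a median of 0.29. In 6 both knockout-labelled libraries lay above both controls, against 27.3% of all genes. After scaling to TPM 4 were higher and 9 lay above the median of all genes. Psmd4 was at 76.8 and 123 FPKM in knockout-labelled libraries, against 61.9 and 59.1 FPKM in controls. Its difference of 0.67 was the largest of all members (SE 0.25, adjusted p = 0.380), and replicate 2 carried most of it. Psmd7, the partner of the deubiquitinase Psmd14, was at 70.1 and 108 FPKM, against 58.8 and 59.6 FPKM in controls, with a difference of 0.55 (SE 0.24, adjusted p = 0.414). Psmd2 was evenly higher, at 80.6 and 82.7 FPKM, against 63.4 and 64.5 FPKM in controls. Its difference was 0.35 (SE 0.10, adjusted p = 0.303). Psmd1, the other large scaffold, was as even, at 55.0 and 54.5 FPKM, against 43.8 and 45.5 FPKM in controls, with a difference of 0.29. Psmd14 itself, at 41.7 and 49.2 FPKM against 41.6 and 52.1 FPKM in controls, had a difference of −0.04 (SE 0.17, adjusted p = 0.928).

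The 20S subunits were all higher at 12 months on the deposited scale, with medians of 0.30 for alpha and 0.17 for beta subunits. In 8 of 14 both knockout-labelled libraries lay above both controls, against 27.3% of all genes. After scaling to TPM 1 of the 14 was higher, and 13 lay above the median of all genes. Psma5 was at 25.01 and 35.3 FPKM in knockout-labelled libraries, against 21.2 and 20.6 FPKM in controls, with a difference of 0.49 (SE 0.20, adjusted p = 0.393). Psmb4 was at 272 and 322 FPKM, against 243 and 256 FPKM in controls. Its difference of 0.25 (SE 0.14, adjusted p = 0.490) was −0.08 after scaling to TPM. The catalytic genes overlapped for Psmb5 and Psmb6, with differences of 0.10 and 0.17, and did not overlap for Psmb7, at 0.24.

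The chaperones had a median difference of 0.08 at 12 months, with 5 of 7 higher as deposited, 1 after scaling to TPM and 4 above the median of all genes under both. Psmg4 was at 15.8 and 24.6 FPKM in knockout-labelled libraries, against 14.8 and 13.2 FPKM in controls, the only chaperone without overlap, with a difference of 0.47 (SE 0.24, adjusted p = 0.474). Psmg3 was at 8.38 and 10.04 FPKM, against 12.0 and 9.87 FPKM in controls, with a difference of −0.23 (SE 0.16, adjusted p = 0.565). Psmd5 was at 12.3 and 17.6 FPKM, against 15.4 and 15.6 FPKM in controls, with a difference of −0.07 (SE 0.20, adjusted p = 0.875). The X-linked Psmd10, whose product gankyrin helps assemble the ATPase ring, had a difference of 0.09, at an age where the sex-linked genes divided with the labels. All 3 genes of activators or inhibitors were higher as deposited, and after scaling to TPM none was above 0 and 2 lay above the median of all genes. Psmf1 was at 14.2 and 15.05 FPKM in knockout-labelled libraries, against 12.2 and 11.2 FPKM in controls, without overlap, with a difference of 0.30 (SE 0.11, adjusted p = 0.382).

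Single libraries weighed heavily on both ages. At 3 months knockout-labelled replicate 2 was the highest library for 29 of 41 members and control replicate 3 the lowest for 27. Such counts were not made over all genes. The median deviation of the members from their gene means was 0.06, 0.26 and 0.02 in the knockout-labelled libraries, against 0.05, −0.14 and −0.26 in the controls, so control replicate 1 lay among the knockout-labelled libraries. Over all tested genes it was 0.01, 0.08 and 0.04, against −0.06, 0.04 and −0.12 in the controls, so part of the low values of control replicate 3 was shared by all genes. At 12 months the members' deviations were −0.03 and 0.26, against −0.13 and −0.11 in the controls. Those of all tested genes were 0.01 and −0.01, against −0.01 and −0.01. Knockout-labelled replicate 2 was the highest for 35 of 41 members at that age. Without that replicate the 12-month median of 0.090 lay 0.064 above that of all genes, against 0.23 with it, and limma called 0 members, against 4.65% of all genes. Without knockout-labelled replicate 1, when 1 knockout-labelled library was assumed to vary like the controls, limma called 25 of the 41, against 31.9% of all genes. At 3 months the members' median lay 0.14 above that of all genes with every library. Without knockout-labelled replicate 2 the median was 0.14 with 35 of 41 higher, 0.072 above all genes. Without control replicate 3 it was 0.14 with 31 higher, 0.085 above all genes. Without control replicate 2 it was 0.22, 0.087 above all genes, and without control replicate 1 it was 0.30, 0.22 above all genes.

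**Figure D4:**
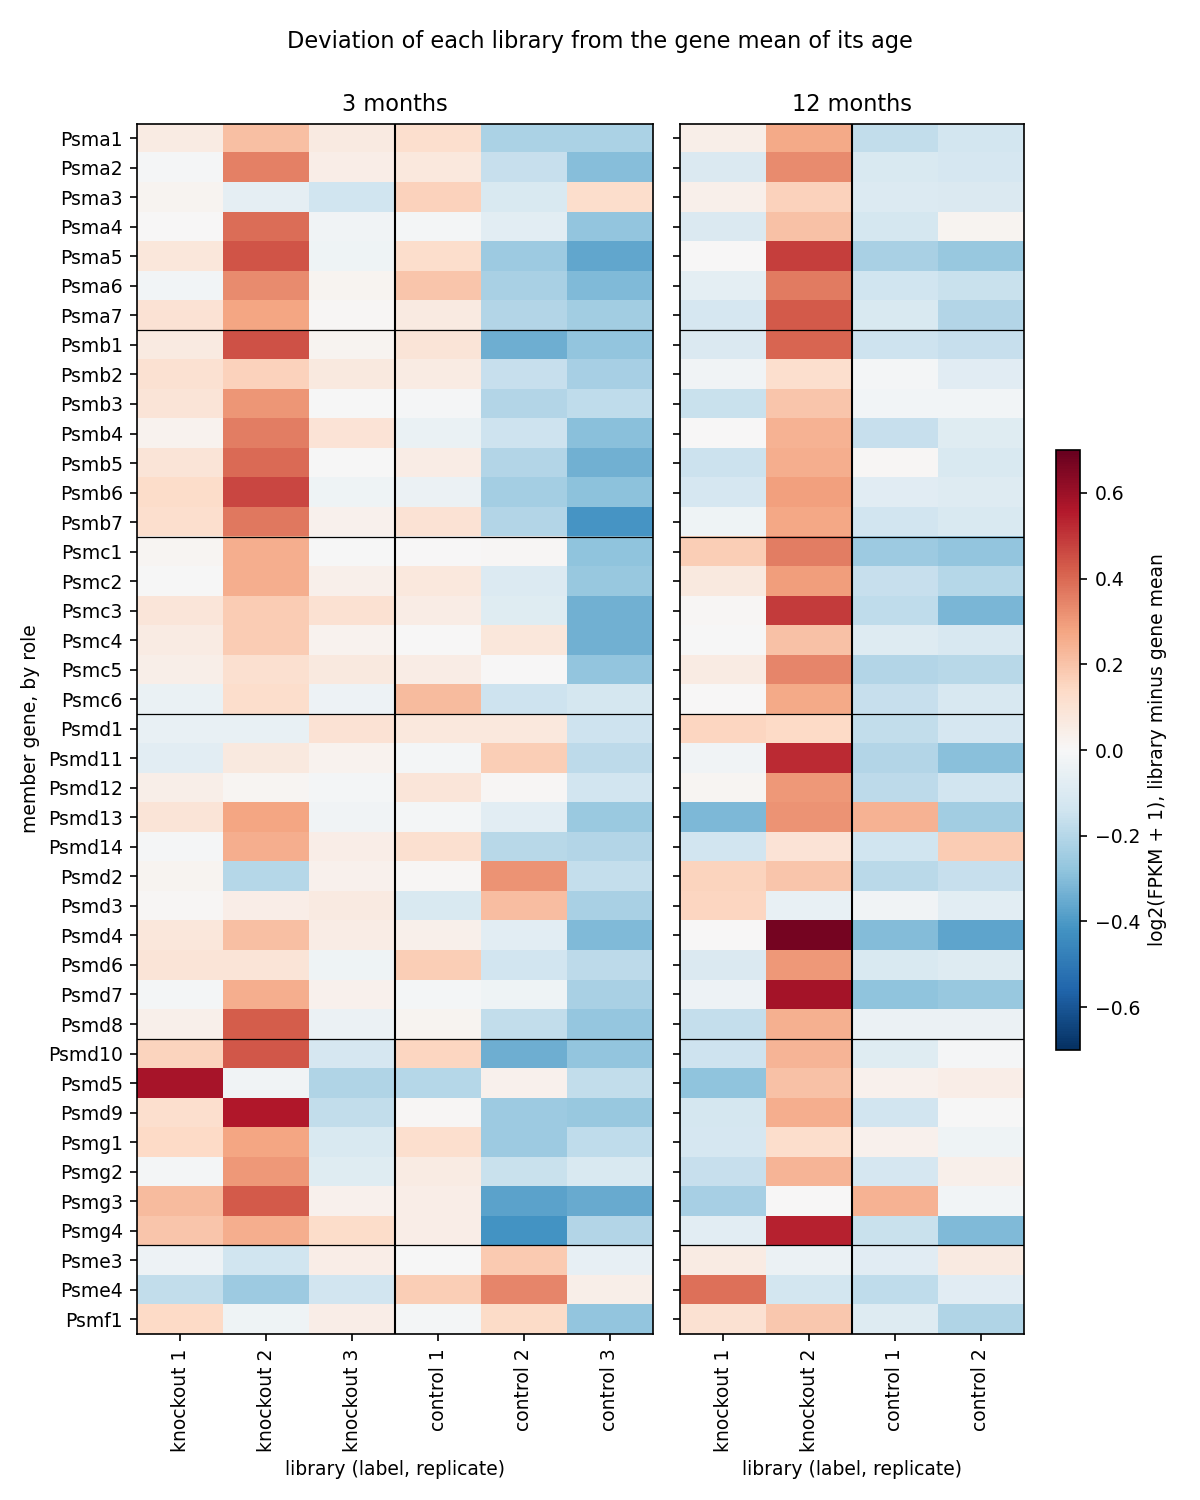
Deviation of each library from the mean of its age on the log2(FPKM + 1) scale for every member (rows, by role), with knockout-labelled libraries left of controls in each panel and red above the mean, blue below. Knockout-labelled replicate 2 is the reddest column at both ages, highest for 29 of 41 genes at 3 months and 35 of 41 at 12 months, and control replicate 3 the bluest at 3 months.

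As a share of all FPKM the members took 0.350%, 0.363% and 0.348% in the 3-month knockout-labelled libraries, against 0.330%, 0.384% and 0.268% in controls. Without Psmd13 they took 0.267% and 0.305% at 12 months, against 0.295% and 0.293% in controls, and the groups overlapped at both ages. The 3-month overlap came through control replicate 2 alone. Its summed FPKM over all genes was 516272, against 626492 to 718787 in the other 3-month libraries. The ratio of summed 20S to summed 19S levels, without Psmd13, was 1.75, 1.95 and 1.68 in the 3-month knockout-labelled libraries, against 1.70, 1.47 and 1.65 in controls. At 12 months it was 1.15 and 1.16, against 1.27 and 1.29 in controls. Both knockout-labelled libraries lay below both controls at that age, and the 3-month groups overlapped.

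The difference between the ages was tested as an interaction over all 10 libraries, and no member was called, against 1.38% of 11580 genes. At an unadjusted p under 0.05 there were 2, Psme4 and Psmg3, against 15.3% of all genes. The knockout-minus-control difference of Psme4 was 0.63 higher at 12 months than at 3 months (SE 0.22, adjusted p = 0.204). At 12 months Psme4 was at 76.9 and 53.5 FPKM in knockout-labelled libraries, against 51.6 and 55.3 FPKM in controls, and replicate 1 alone lay above the controls. Without knockout-labelled replicate 2 of 12 months its interaction was 0.89 (SE 0.19, adjusted p = 0.0403), the only member called there, against 3.05% of all genes. That fit rests on the 1 knockout-labelled library in which Psme4 was high, and its spread comes from the other groups. The difference of Psmg3 was lower at 12 months, by an interaction of −0.68 (SE 0.25, adjusted p = 0.214), and that of Psmd2 was higher, at 0.45 (SE 0.21, adjusted p = 0.347).

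By role the interactions ran in both directions. All 6 ATPases and 8 of 11 non-ATPase genes had a positive interaction, with medians of 0.24 and 0.29, as did 5 of 7 alpha genes at a median of 0.07. None of the 7 beta genes did (median −0.13), and 1 of 7 chaperones did (median −0.20). Over all 41 members 23 were positive, with a median of 0.06, against −0.08 for all genes. Without knockout-labelled replicate 2 of 12 months 16 were positive and the median was −0.14, or −0.082 relative to all genes, and without control replicate 1 of 3 months 17 were positive and the median was −0.040. After scaling to TPM 12 were positive and the medians were −0.17 for the members and −0.28 for all genes. The share of positive interactions over all genes was not counted. Against all genes in their length bins, beta genes had median offsets of 0.03 at 3 months and 0.07 at 12 months. Their lower values at 12 months were therefore not seen against genes of like length. The offsets were 0.09 and −0.01 for chaperones, −0.05 and 0.30 for ATPases, −0.05 and 0.27 for non-ATPase genes and −0.05 and 0.21 for alpha genes. Table, library preparation and, at 12 months, the sex-linked pattern all go with age, and age cannot be told apart from these.

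Related genes were looked up in lists named with earlier results of these data known, and none of their genes was called at either age. The 5 interferon-inducible genes were all higher at 3 months under each scaling, with a median of 0.44. The products of Psmb8, Psmb9 and Psmb10 among them replace constitutive beta subunits in immune cells. Psmb9 was at 12.5, 19.1 and 10.6 FPKM in knockout-labelled libraries, against 8.99, 7.19 and 6.53 FPKM in controls, without overlap, for a difference of 0.78 (SE 0.21, adjusted p = 0.135). Summed lymphocyte and neutrophil markers (7 genes) were at 13.8 to 17.6 FPKM in those libraries, against 5.37 to 9.71 FPKM in controls. Of the 4 tested, Nkg7, a marker of cytotoxic lymphocytes, was called higher, at 3.17, 4.801 and 2.62 FPKM, against 0.717, 0.339 and 0.309 FPKM in controls (adjusted p = 0.0104), and their part in these values was not tested. At 12 months 3 of the 5 were higher as deposited, with a median of 0.01, and after scaling to TPM none was above 0 and 2 lay above the median of all genes.

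The NFE2L1 axis, comprising the factor, its relatives, its small Maf partners, the enzymes that activate it and Keap1, the inhibitor of its relative Nfe2l2, had medians of opposite sign at the 2 ages, a difference that was not tested for the list. At 3 months 2 of 8 tested genes were higher, 0 after either rescaling, with a median of −0.06, and Mafg, a small Maf partner, was at 9.04, 8.12 and 8.53 FPKM in knockout-labelled libraries, against 10.4, 15.9 and 11.2 FPKM in controls. At 12 months all 8 were higher as deposited and 6 after scaling to TPM, all 8 above the median of all genes, with a median of 0.51. Nfe2l1 was at 341 and 337 FPKM in knockout-labelled libraries, against 221 and 229 FPKM in controls. The replicates were close and the groups far apart, with a difference of 0.59 (SE 0.10, adjusted p = 0.194). Nfe2l2, the related regulator of antioxidant genes, was at 43.5 and 38.9 FPKM, against 26.2 and 26.7 FPKM in controls, with a difference of 0.62 (SE 0.11, adjusted p = 0.201). Mafk and Maff, also small Maf partners, had differences of 1.09 and 0.92.

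Among other proteasome factors, Pomp, the maturation factor of the core, was at 54.1, 65.2 and 52.8 FPKM in the 3-month knockout-labelled libraries, against 51.5, 41.8 and 44.2 FPKM in controls, with a difference of 0.32. The 8 factors had a median of 0.05 at 3 months (6 higher, and 3 after either rescaling) and 0.20 at 12 months (8 higher; after scaling to TPM 2 above 0 and 7 above the median of all genes). Of the ubiquitin genes, Ubb was at 118 and 173 FPKM in the 12-month knockout-labelled libraries, against 85.1 and 87.4 FPKM in controls, with a difference of 0.72 (SE 0.22, adjusted p = 0.313). The ubiquitin list of 6 had medians of 0.30 at 3 months (5 higher, and 4 after either rescaling) and 0.04 at 12 months (3 higher; after scaling to TPM 1 above 0 and 3 above the median of all genes). The 11 shuttle and VCP factors, which carry ubiquitinated proteins to the proteasome, had 5 higher at 3 months (3 after either rescaling, median −0.03) and 9 at 12 months (median 0.19). After scaling to TPM at 12 months 0 were above 0 and 8 of the 11 lay above the median of all genes. The COP9 signalosome, a complex built like the 19S lid, had 8 of 10 higher at both ages (4 after either rescaling at 3 months), with medians of 0.06 and 0.18. At 12 months on the TPM scale 2 were above 0 and 6 of the 10 above the median of all genes.

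**Figure D5:**
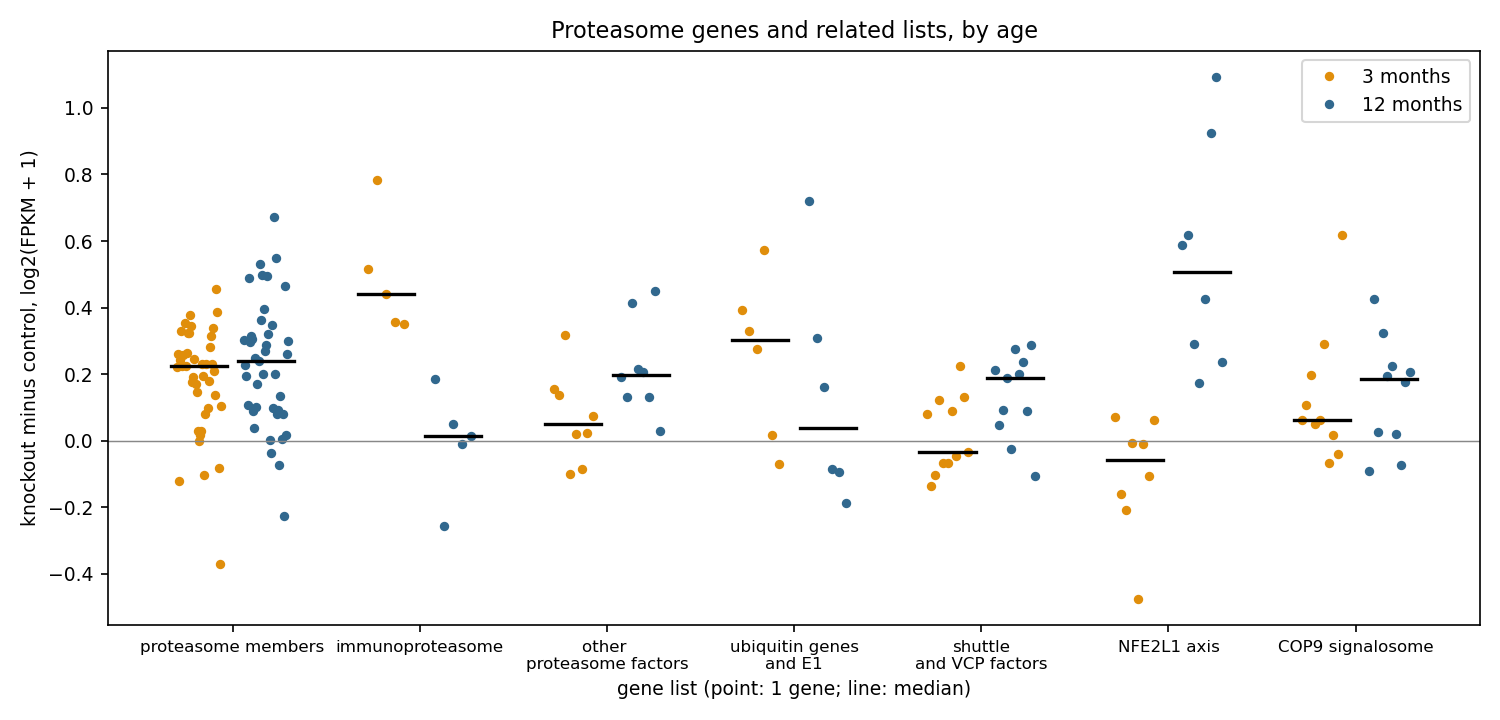
Difference between knockout-labelled and control libraries (log2(FPKM + 1)) for each gene of the proteasome members and 6 related lists, at 3 months (orange) and 12 months (blue), with a black line at each median. The NFE2L1 axis had medians of −0.06 and 0.51, the interferon-inducible genes 0.44 and 0.01, and the members 0.22 and 0.24.

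Markers of other cells and chambers also differed between the labels. The 5 red blood cell markers were all called higher at 3 months, summing to 2081 to 3111 FPKM in knockout-labelled libraries, against 818 to 1113 FPKM in controls. At 12 months all 5 were called lower, with sums of 1955 to 2157 FPKM, against 10646 to 10782 FPKM. Of the 4 atrial markers, Nppa, a natriuretic peptide gene also induced in stressed ventricle, was called higher at 3 months, at 11824, 19851 and 16225 FPKM, against 749, 561 and 3825 FPKM in controls. The other 3 varied between libraries of 1 label: the atrial light chain Myl7 was at 113, 2568 and 891 FPKM, against 84.2, 39.4 and 779 FPKM in controls. Knockout-labelled replicate 2 had the highest Myl7 and was also the library in which most proteasome genes were highest. At 12 months Nppa alone of the 4 was higher, and the other 3 were lower in both knockout-labelled libraries than in both controls. The 8 cardiomyocyte markers summed to 38373 to 42030 FPKM at 3 months, against 29298 to 35757 FPKM in controls, with 6 higher. Of these 6, Ryr2 was at 22.9, 20.7 and 24.8 FPKM, against 25.9, 0 and 29.1 FPKM in controls. It counted as higher only through the control library listed at 0. At 12 months the 8 markers summed to 69453 to 77482 FPKM, against 66438 to 66605 FPKM, with 5 higher. None of the 8 was called at either age. The airway gene Scgb1a1 was called lower at 3 months, at 0.146, 0.319 and 0.151 FPKM, against 11.1, 26.8 and 10.6 FPKM in controls, while Sftpc, an alveolar marker, was listed at 0 in every library. At 12 months 3 of the 4 adipocyte markers were lower, and Ucp1 and Plin1 were called. Ucp1, of brown fat, had 0 FPKM listed under the knockout label in both, against 8.80 and 8.01 FPKM in controls. Plin1 was at 0.547 and 0.423 FPKM, against 5.55 and 5.06 FPKM. The most abundant of the 4, Cidea, overlapped at 21.8 and 39.5 FPKM, against 27.6 and 27.1 FPKM, with a difference of 0.10. Of the fibroblast markers 4 of 5 were lower there, Col1a1 at 24.2 and 10.9 FPKM, against 40.6 and 41.9 FPKM, as were 3 of 4 smooth muscle and pericyte markers, Acta2 at 112 and 93.4 FPKM, against 198.3 and 198 FPKM, none of them called. The part of these cells in the members' values was not tested.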

How the data were processed

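RNA-seq libraries from mouse hearts were measured in 4 groups, as given by the labels. The authors deposited FPKM values, 1 table per age, with no counts. Per the labels' protocols, a directional poly(A) kit was used at 3 months, and the Genome Institute of Singapore made the libraries of 12 months. Per the submitters' processing notes, the tools were Cufflinks 2.1.1, STAR 2.5.1b, TopHat2 2.1.0 and FastQC, with builds GRCm38 and mm10. Which of these made which table is unstated. By its name the 12-month table excludes outliers. The 3-month table had 46855 rows, and 69 that repeated an identifier were summed, Psmd5 among them.

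Each age was tested alone with limma 3.58.1 in R 4.3.3 on log2(FPKM + 1), with a mean of at least 1 FPKM, an empirical Bayes trend and Benjamini-Hochberg adjustment over all genes. A fold change on this scale understates the change of low genes. A call is an adjusted p under 0.05. The age difference was an interaction contrast over 10 libraries. The pipeline was tested on simulated data. At 12 months 87.9% to 89.5% of low values lay within 0.05 of a whole read at the best depth found, and at 3 months 20.0% to 35.5%. Transcript length was the longest coding transcript in GENCODE M21 (GRCm38), and promoter sequences are from RefSeq (GRCm38.p6).

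Members, roles and lists were chosen with earlier results of these data known. Full values are given for the member of lowest p per role at each age, for the 3 largest and 3 smallest differences per age and for the 3 lowest interaction p, and other members are named for their level, overlap or role. Alternatives changed the pseudocount, the filter, the scaling, the trend, the replicate block, the libraries and the pooling of ages.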

Additional observations from a re-analysis of the deposited data

How the results depend on the processing

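Of 332 values of named members under the alternatives, 326 kept their direction and 6 reversed. Changing the filter, the trend, the replicate block or the pooling of ages leaves a difference as it is. Those alternatives therefore could not reverse a direction, and their values are counted among the 326. No member was called at 3 months under any of 15 alternatives. Over all genes these called 10 of 22996 (no filter) to 142 of 12200 (TPM). Leaving out 1 library at a time gave 0 to 25 called members at 12 months and 0 to 1 for the difference between ages. Without 1 library at a time, the members' median at 12 months was 0.090 to 0.37, and it lay 0.064 to 0.37 above that of all genes. For the difference between ages the median was −0.14 to 0.20, and relative to all genes −0.082 to 0.29. The lowest and highest of these medians came without knockout-labelled replicate 2 and without knockout-labelled replicate 1 of 12 months. Without 1 library, Psmd2 at 3 months ranged from −0.21 to 0.028 (reversed without control replicate 2), Psmd14 at 12 months from −0.20 to 0.12 (reversed at 0.08 without knockout-labelled replicate 1 and at 0.12 without control replicate 2), and Psmd5 at 12 months from −0.32 to 0.17. Leaving out either control of 12 months gave 0 called genes of all 13179, and so 0 members.

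Scaling to TPM gave a 12-month median of −0.082 with 10 members above 0 and an age-difference median of −0.17 with 12 above 0. It reversed Psmb4 (−0.076) and Psmf1 (−0.00188) at 12 months. Members whose groups did not overlap, knockout higher, numbered 3 after that scaling (9.01% of all genes) and 0 after median-ratio scaling (12.5%) at 3 months, and 2 after scaling to TPM at 12 months (7.85%). Whether replicate numbers pair the libraries could not be settled. Same-numbered deviations had correlations of −0.12, −0.46 and −0.14 at 3 months and −0.01 and −0.01 at 12 months. Those of unlike number ran from −0.33 to 0.37 at 3 months. The deviations are centred within each label, which ties them to each other. With 2 libraries a label the 12-month values are 1 number given 2 times. With the replicate number as a block, 0 members were called at 3 months, at 12 months and between ages. Over all genes the calls were 29 of 12200, 40 of 13179 and 55 of 11580.

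Limits: there were 2 libraries a label at 12 months, the sex-linked genes divided with those labels, and depth at 3 months is unknown. The causes of the shifts between settings were not tested, except that the TPM scaling divides by sums that differ between labels.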
